A study of Mus musculus with 8 samples.

Results

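Gsn, Cald1, Flnc, Acta1, Myl6 and Dbn1 encode proteins of the actin filament and of its contraction, and their RNA levels were followed in mouse embryonic stem (ES) cells that carry a Venus reporter of the endodermal gene Hex. Each of the 6 genes was read by 1 probe, chosen because a supplementary list of the study pairs that probe with the gene's symbol, out of 1998 probes so named and 42006 distinct probes on the array. The cells were the Hex-IRES-Venus knock-in line (HV here, HIV in the labels) of strain 129/Ola, grown with the cytokine LIF under self-renewing conditions and then sorted by flow cytometry on Venus (V) and on the ES cell surface antigen SSEA-1 (S). All groups therefore carried the same knock-in allele and the same treatment, and differed in the sorted fraction, which was V-S+ or V+S+ for cells with SSEA-1 and V-S- or V+S- for cells without it. Clones 5.1 and 16.1, which the paper calls independent, each gave all 4 fractions, so that each fraction had 2 samples and the series 8. Both clones were targeted from 1 parental line, which expresses the bacterial BirA ligase. Each clone lay on an array slide of its own, so that clone and slide cannot be told apart.

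Actin monomers assemble into polar filaments, and most of the proteins described here act on filaments that are already built. Gelsolin cuts and caps them, filamin C ties them together, caldesmon and drebrin bind along their sides, and the myosin light chain Myl6 is a subunit of the motor that pulls on them. In ES cells and in the endoderm that forms beside the epiblast, this cytoskeleton is known for setting cell shape, spreading and adhesion. Several of its genes are also well known from muscle, where the same proteins work in stable contractile arrays.

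The measurement on each array was the log2 ratio of Cy3, which labelled the sorted sample, to Cy5, which labelled a universal mouse reference RNA pooled from cultured cell lines, myoblasts and embryo fibroblasts among them. A ratio below 0 thus says only that the gene was lower in the sample than in that pool, and the level of 1 probe cannot be set against that of another. Of the probes, 29484 were tested. The median Cy3 signal was between 2.36 and 2.87 times the local background, and between 28317 and 29671 probes per sample were well above background. All 6 probes were well above background in both channels of all 16 scans, with Cy3 signals from 26.7 (Dbn1) to 752 (Cald1) times the background, and none was saturated. Repeat scans of a sample differed by at most 0.13 on the log2 scale for any of the 6.

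The probes themselves are shown because they define what was measured. The scanner files give each as 60 bases without a gene or a position, and 30 bases of each are printed here, 5′ to 3′ as filed. Capitals mark the longest run of letters that the probe shares with any of the other 66 probes of a wider list of actin genes.
Gsn, bases 31 to 60: gtagccaaaacAAGCCCTGTGGAAActcag
Cald1, bases 23 to 52: gccattgttaaAAAACCTTataaacactta
Flnc, bases 4 to 33: aggatctgtgTGAGAGAGAAgtcaccctca
Acta1, bases 1 to 30: aAAGCCCTGTGGAAAggaaatggaaaactt
Myl6, bases 12 to 41: gcatcaactaTGAAGCATTtgtgaggcata
Dbn1, bases 1 to 30: gacttgtacaATTGACTGGttttcctcccg
The longest run, 14 bases, was common to the Gsn and Acta1 probes, and the other 4 probes shared at most 10 bases with another probe of the list. The Acta1 probe shared 5 bases with the probe of Acta2 and 5 with that of Actg2, the other actin isoforms named by the study's list. The share of G and C in the whole probe ran from 28.3% (Cald1) to 55% (Flnc).

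All 6 genes had the same order of mean levels, V-S- lowest, then V-S+, then V+S+, and V+S- highest. The distance from the lowest to the highest mean was 3.97-fold for Gsn and 2.34-fold for Dbn1, the widest and the narrowest of the 6. The order held within each clone too, with 1 exception, Myl6 in clone 5.1, where V-S- lay above V-S+. The study's list was itself drawn by a test of differences among these fractions on these arrays, so that a difference among fractions in its genes is no independent evidence. By the moderated F-test of limma, 4 of the 6 genes passed an FDR of 0.05 (Benjamini-Hochberg), against 7.38% of all probes tested, and Dbn1 and Acta1 did not, with adjusted p of 0.0527 and 0.0566. With clone as a block all 6 passed, against 43.5% of all probes. The count was 1 with the signals as the scanner software had processed them, a setting that passed 0.288% of all probes. It was 0 when any single sample other than V+S+ was left out, and so was the count over all probes in each of those fits by limma, where 6228 to 8312 probes had an unadjusted p under 0.05.

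**Figure D1:**
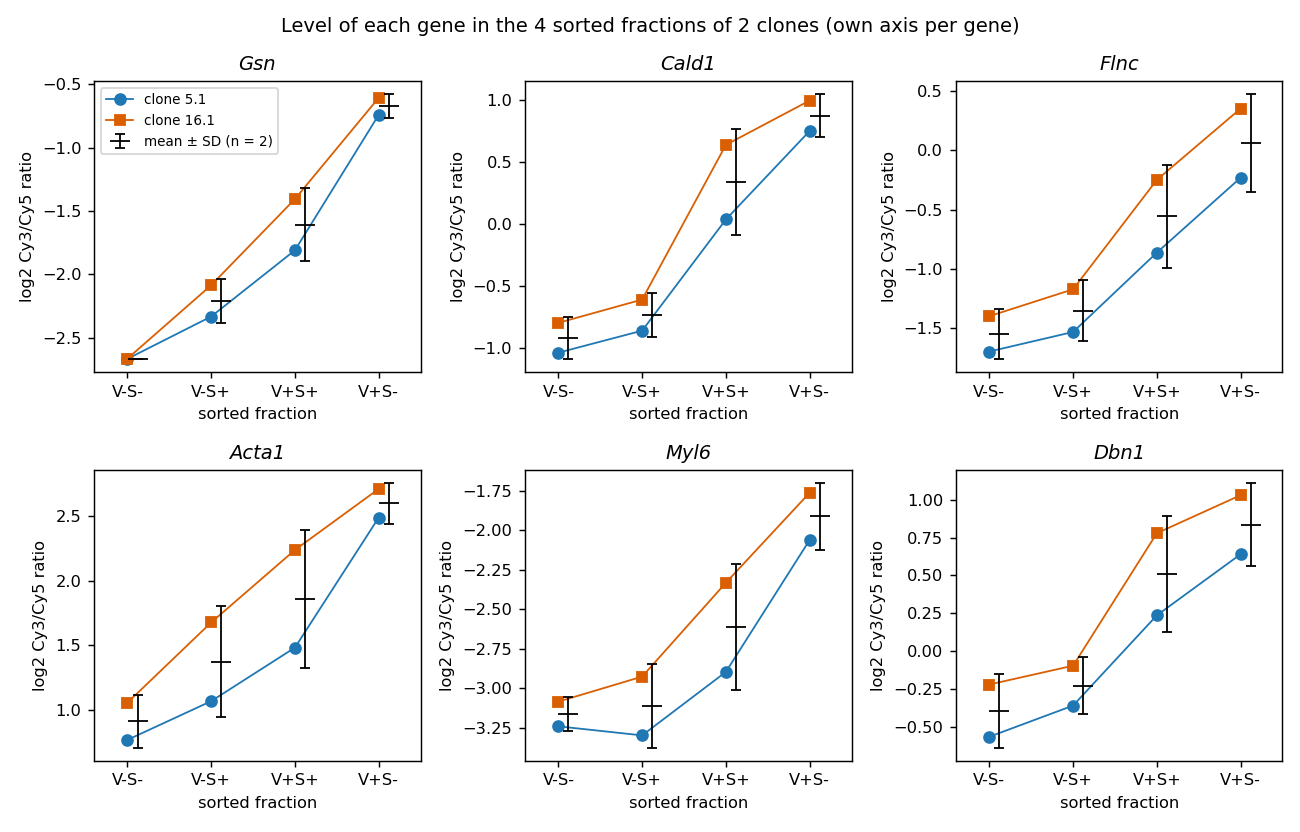
Log2 Cy3/Cy5 ratio (vertical axis, a separate scale for each gene) of Gsn, Cald1, Flnc, Acta1, Myl6 and Dbn1 in the 4 sorted fractions (horizontal axis) of clone 5.1 (circles) and clone 16.1 (squares), with the mean ± SD of the 2 samples as black bars. Levels climb from V-S- to V+S- in both clones, with Myl6 in clone 5.1 the only line that dips, and clone 16.1 lies at or above clone 5.1 at every point.

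Gsn encodes gelsolin, which severs actin filaments and caps their fast-growing ends in a calcium-dependent way. In clone 5.1 its log2 ratio was -2.66 for V-S-, -2.33 for V-S+, -1.81 for V+S+ and -0.74 for V+S- cells. Clone 16.1 gave -2.66, -2.08, -1.41 and -0.61 in the same order. No 2 fractions overlapped, and the V+S- mean of -0.68 ± 0.10 (SD, n = 2) stood 1.99 above the V-S- mean of -2.66 ± 0.001 on the log2 scale, a 3.97-fold difference (SE 0.15 on the log2 scale, adjusted p = 0.00839 by limma). Ordered by this difference, it ranked 25 among all probes tested. Gsn was also the only one of the 6 whose V-S- level stood apart from V-S+ at an unadjusted p under 0.05, by -0.46 (95% interval -0.82 to -0.10), and that difference did not pass the adjustment over all probes (adjusted p = 1.00).

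Cald1 encodes caldesmon, which lies along actin and tropomyosin and restrains the myosin ATPase. Its log2 ratio in clone 5.1 was -1.04 for V-S-, -0.86 for V-S+, 0.03 for V+S+ and 0.75 for V+S- cells. The corresponding 4 values in clone 16.1 were -0.80, -0.61, 0.64 and 0.99. Both V+ fractions lay above both V- fractions in every sample, the 2 V- fractions overlapped, and V+S- exceeded V+S+ by a gap of 0.11 between the nearest samples. V+S- stood 1.79 ± 0.21 (SE) above V-S- and 1.61 ± 0.21 above V-S+, or 3.46-fold and 3.05-fold.

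Flnc encodes filamin C, the muscle-enriched filamin that cross-links actin filaments at Z-discs and at the membrane. From the lowest fraction to the highest, in the order given above, the log2 ratio was -1.70, -1.53, -0.86 and -0.23 in clone 5.1. In clone 16.1 it was -1.40, -1.17, -0.25 and 0.35. The V+S+ sample of clone 16.1 reached almost the V+S- sample of clone 5.1, with a gap of 0.02, while within each clone V+S- was higher by 0.63 and 0.60. The difference between V+S- and V-S- was 1.61 ± 0.28 (SE), or 3.05-fold.

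Acta1 encodes the skeletal muscle isoform of alpha-actin, the filament subunit itself. Clone 5.1 had log2 ratios of 0.77 for V-S-, 1.07 for V-S+, 1.48 for V+S+ and 2.49 for V+S- cells. Clone 16.1 had 1.06, 1.68, 2.24 and 2.71. It was the one gene of the 6 with ratios above 0, that is above the reference pool, in all 8 samples. V+S+ of clone 5.1 lay below V-S+ of clone 16.1, so that those fractions overlapped. V+S- was 3.22-fold above V-S-, a log2 difference of 1.69 ± 0.30 (SE), and 2.34-fold above V-S+.

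Myl6 encodes the essential light chain of non-muscle and smooth muscle myosin II. Every sample was below the reference pool, with log2 ratios in clone 5.1 of -3.24 and -3.30 for the Venus-negative cells without and with SSEA-1, and of -2.90 and -2.06 for the Venus-positive cells with and without it. For clone 16.1 the log2 ratios were -3.09, -2.93, -2.33 and -1.76 in that order. The V- fractions overlapped and changed places between the clones, the lowest V+S+ value was 0.03 above the highest V-S+ value, and both V+S- values were above all others. The log2 difference between V+S- and V-S- was 1.25 ± 0.22 (SE), or 2.38-fold.

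Dbn1 encodes drebrin, a side-binding protein best known from the dendritic spines of neurons. Its log2 ratios in clone 5.1 were -0.56 for V-S-, -0.36 for V-S+, 0.24 for V+S+ and 0.64 for V+S- cells. In the same order, clone 16.1 had -0.22, -0.10, 0.78 and 1.03. The V+ fractions overlapped each other and the V- fractions overlapped each other, and no V+ sample reached down to a V- sample. V+S- stood 1.23 ± 0.23 (SE) above V-S-, or 2.34-fold, the smallest of the 6 differences.

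Venus-positive and Venus-negative cells were compared first among cells without SSEA-1. All 6 genes were higher in the Venus-positive cells, V+S-, with log2 differences between 1.23 (Dbn1) and 1.99 (Gsn), a median of 1.65 and adjusted p between 0.00839 and 0.0224 by limma with Benjamini-Hochberg adjustment over all probes. Calls here required an FDR below 0.05 together with a difference above 1.5-fold, a rule that 6.3% of all probes passed in this direction, 8.96% with clone as a block, and the median difference over all probes tested was 0.01. Of the study's list, from which the 6 were drawn, 53.1% passed, 56% with the block, and its median difference was 0.69. All 6 were also called with the block, all were higher in both clones and no samples overlapped, as was the case in this direction for 35% of all probes. The calls did not all hold once any 1 sample of V+S- or V-S- was left out. Those fits had no clone block and kept 1 sample in the fraction concerned. In them the log2 differences of the 6 genes stayed between 1.03 and 2.06.

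**Figure D2:**
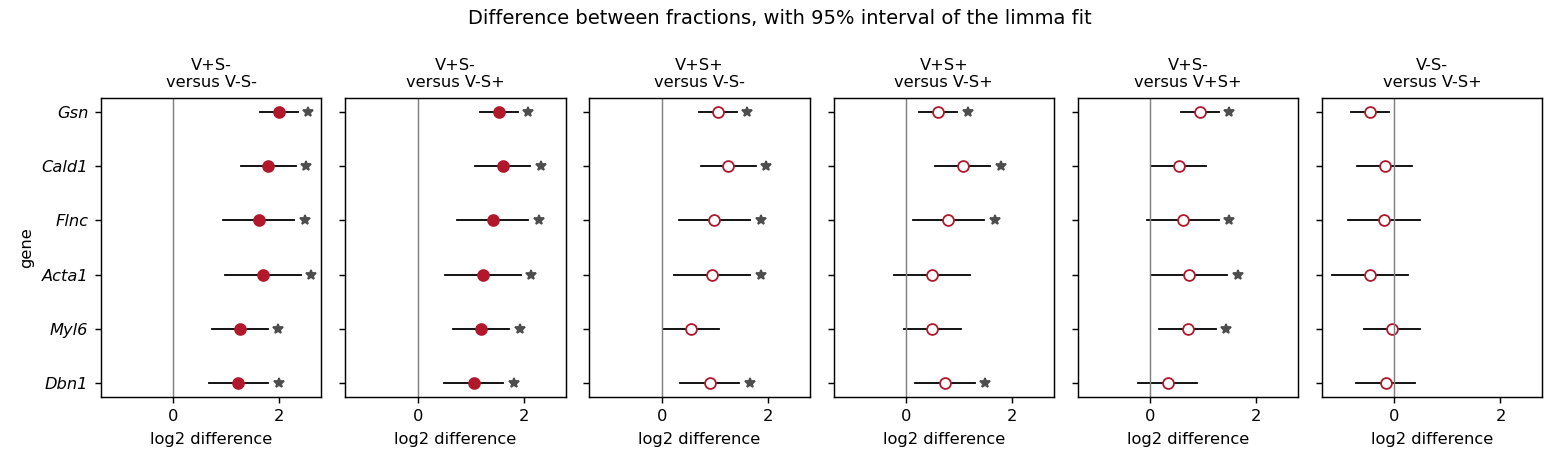
Difference in log2 Cy3/Cy5 ratio (horizontal axis) of each gene (vertical axis) between 2 fractions in each of the 6 pairs, with the 95% interval of the limma fit as a line. Filled points passed the FDR of 0.05 and 1.5-fold, open points did not, and a star marks genes called with clone as a block. All points in the 2 leftmost panels are filled, and in the rightmost panel, V-S- versus V-S+, no gene has a star.

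Against V-S+ cells, the Venus-negative cells with SSEA-1, V+S- again had all 6 genes higher, with log2 differences between 1.06 (Dbn1) and 1.61 (Cald1) and adjusted p between 0.0113 and 0.0410. The background of calls in this direction was 5.73% of all probes, and 8.87% with the block. In the study's list it was 48.1%, and 54.9% with the block. This comparison shares its V+S- samples with the previous one. No gene was called (0 of 6) once the V-S+ sample of either clone or clone 16.1's V+S- sample was dropped, and over all probes these limma fits called 1, 2 and 0, with an unadjusted p under 0.05 for 6844 to 7589. Dropping clone 5.1's V+S- sample left 3 genes called, against 4.05% of all probes in either direction. Dropping a V-S- sample of clone 5.1 or of clone 16.1 left 2, against 3.25% and 3.26%, although these samples enter the contrast only through the common estimate of the spread.

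Within the cells that bear SSEA-1, the levels in V+S+ were above those in V-S+ by 0.49 (Acta1) to 1.07 (Cald1) on the log2 scale, in both clones for all 6 genes. Without a clone term no gene was called, nor any probe (0%), with adjusted p between 0.161 and 0.401 for the 6 and unadjusted p under 0.05 for 4 of them, against 5515 of all 29484 probes. With clone as a block in limma, Cald1, Flnc, Dbn1 and Gsn were called, against 3.87% of all probes and 25.5% of the study's list, with adjusted p from 0.00296 (Cald1) to 0.00938 (Gsn). Myl6 and Acta1 passed the FDR in that fit (adjusted p = 0.0157 and 0.0408) but stayed under 1.5-fold, at 1.41-fold and 1.40-fold. The 2 samples of V+S+ lay above those of V-S+ for 5 genes and overlapped them for Acta1, and 27.6% of all probes did not overlap in this direction. These differences moved with single samples: leaving out clone 16.1's V+S+ sample took Acta1 to 0.11, Myl6 to 0.22, Gsn to 0.40, Dbn1 to 0.46 and Flnc to 0.49, and leaving out clone 5.1's took Acta1 to 0.86 and Myl6 to 0.78. Without clone 5.1's V-S+ sample Acta1 stood at 0.18 and Myl6 at 0.31, and without clone 16.1's Acta1 stood at 0.79.

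V+S+ cells were set against V-S- cells as well. The 6 log2 differences ran from 0.55 (Myl6) to 1.25 (Cald1), every V+S+ sample lay above every V-S- sample for every gene, as for 28.8% of all probes, and without a clone term none was called (0% of all probes), although all 6 had an unadjusted p under 0.05, as had 6609 probes in all. With the block, 5 were called and Myl6 was not, at 1.46-fold, against 4.76% of all probes and 33.2% of the study's list. Leaving out the V+S+ sample of clone 5.1 brought 3 of the 6 past the threshold without a block, and 4.74% of all probes in either direction with them, and raised Myl6 to 0.83. Leaving out that of clone 16.1 gave 0.27 for Myl6 and 0.57 for Acta1.

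The 2 Venus-positive fractions were also compared with each other. V+S- exceeded V+S+ by 0.33 (Dbn1) to 0.93 (Gsn) on the log2 scale, higher in both clones for all 6 genes. The samples overlapped for Dbn1 and not for the other 5, and did not overlap in this direction for 21.9% of all probes. Without clone 5.1's V+S+ sample the difference was 0.06 for Dbn1, 0.23 for Cald1, 0.31 for Flnc, 0.36 for Acta1 and 0.42 for Myl6, and without clone 16.1's it was 0.60 for Dbn1, 0.84 for Cald1 and 1.12 for Acta1. Leaving out clone 16.1's V+S- sample gave 0.13 for Dbn1 and 0.33 for Flnc, and leaving out clone 5.1's gave 0.52 for Dbn1. Without a clone term no gene or probe was called (0%), and 4 of the 6 and 4429 probes in all had an unadjusted p under 0.05. With clone as a block in limma, Gsn, Acta1, Myl6 and Flnc were called, with adjusted p from 0.00769 (Gsn) to 0.0217 (Acta1). In this direction 1.75% of all probes were called, and 17% of the study's list, from which the 6 were drawn. Cald1 and Dbn1 passed the FDR there (0.0238 and 0.0422) with changes of 1.45-fold and 1.25-fold. Expressed as a share of the log2 distance from V-S+ to V+S-, the V+S+ mean stood at 69.2% for Dbn1 and 66.7% for Cald1, at 56.4% for Flnc and at 41.5%, 39.8% and 39.2% for Myl6, Acta1 and Gsn. In every gene this share was larger in clone 16.1, from 46% (Gsn) to 77.7% (Cald1 and Dbn1), than in clone 5.1, from 29.2% (Acta1) to 59.6% (Dbn1).

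Among the Venus-negative cells, no difference between V-S- and V-S+ was detectable at this precision. The mean differences of the 6 genes were between -0.46 (Acta1) and -0.05 (Myl6), 5 of the 6 were lower in V-S- in both clones, and no gene or probe was called with or without the block (0% and 0%). One of the 6, Gsn, and 834 of all probes had an unadjusted p under 0.05. The 95% intervals left room for a fall of up to 1.18 (Acta1) and a rise of up to 0.48 (Myl6) on the log2 scale. Single samples moved these small differences: without clone 16.1's V-S+ sample they were -0.16 for Acta1, -0.06 for Cald1, -0.016 for Flnc and -0.033 for Dbn1, and without clone 5.1's they were -0.76, -0.31, -0.38 and -0.30. Without clone 5.1's V-S- sample Cald1 stood at -0.06, Flnc at -0.047 and Dbn1 at 0.0074, and without clone 16.1's at -0.30, -0.35 and -0.34. Myl6 ran from -0.237 to 0.136 over these fits. The normalization moved the differences too. With median centring in place of loess they were -0.67 for Gsn, -0.66 for Acta1, -0.40 for Cald1 and for Flnc and -0.27 for Myl6. In that limma fit 4449 of all probes had an unadjusted p under 0.05, and none was called (0%).

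**Figure D3:**
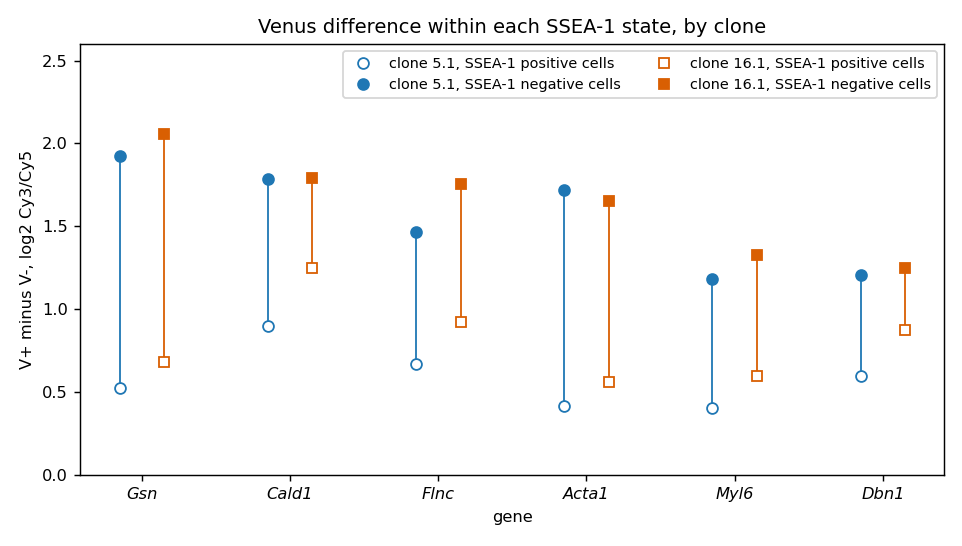
Venus-positive minus Venus-negative log2 Cy3/Cy5 ratio (vertical axis, starting at 0) for each gene, in cells with SSEA-1 (open symbols) and without it (filled symbols), in clone 5.1 (circles) and clone 16.1 (squares). Every filled symbol lies above the open symbol of the same gene and clone, by 1.40 and 1.38 for Gsn and by 0.61 and 0.38 for Dbn1.

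Whether the Venus difference depended on SSEA-1 was tested as an interaction, the difference of V+S- from V-S- less that of V+S+ from V-S+. The value was above 0 for all 6 genes in both clones, and on the log2 scale was 1.39 ± 0.21 (SE) for Gsn, 1.20 ± 0.42 for Acta1, 0.81 ± 0.39 for Flnc, 0.75 ± 0.31 for Myl6, 0.72 ± 0.30 for Cald1 and 0.49 ± 0.33 for Dbn1. The difference of V+S+ from V-S+, which enters it, moved with single samples, as given above, and the interaction moves with it. Without a clone term neither these genes nor any other probe passed an FDR of 0.05 (0%; 3 of the 6 and 2338 of all probes had an unadjusted p under 0.05). With the block, Gsn, Acta1 and Flnc passed with adjusted p of 0.0357, 0.0478 and 0.0498, against 0.95% of all probes, and the other 3 did not (0.0609 to 0.0843).

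Clone 16.1 had the higher level of every gene in every fraction. The smallest of these gaps was that of Gsn in V-S- cells, 0.002 on the log2 scale, and the largest that of Acta1 in V+S+ cells, 0.76, while the median gap of all probes in a fraction was between 0.01 and 0.02. Averaged over fractions, clone 16.1 exceeded clone 5.1 by 0.20 (Gsn) to 0.47 (Acta1). For 5 of the 6 this passed an FDR of 0.05 in the model with fraction and clone, against 16.4% of all probes, and for Gsn it did not (adjusted p = 0.0754). None passed the 1.5-fold threshold as well, against 1.39% of all probes. In all 6 genes the gap was widest in V+S+ cells, between 0.40 (Gsn) and 0.76, although in Flnc the V+S+ gap of 0.61 was followed closely by that in V+S-, 0.58. Whether the gap differed between fractions was not tested.

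The 6 genes followed each other across the 8 samples. Pearson's r between pairs ran from 0.94 (Gsn with Dbn1) to 0.99 (Flnc with Dbn1) over 15 pairs, a description without a test, since the points share arrays, slides and reference RNA and the genes were all taken from a list selected for differences among fractions. Among 1992 other probes named by that list, those most like Acta1 were Air (r = 0.999), Actg2 (0.997) and Acta2 (0.995), the latter both actin isoforms of smooth muscle. Closest to Gsn were Mmp23, Cryab and 1110046J04Rik, with r between 0.994 and 0.999. Cald1 ran nearest to Ptpn13, Dusp22 and Wnt4, Flnc to Tmem49, 2310016C16Rik and Parva, and Dbn1 to Zfpm2, Camk2d and Ptrf, all with r of at least 0.997. Myl6 was nearest to Lamb1-1, Osmr and Sparc, each at 0.997. The mean of the 6, each centred on its own average, was most like Slc25a24, Dsp, Erbb2ip, Kif5c and Lrrfip1, with r from 0.997 to 1.00.

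The rest of the actin machinery was read from a list of 173 genes, of which 67 were named by the study's list with 1 probe each, the 6 genes included. Of the other 61, 45 (73.8%) were higher in V+S- cells than in their V-S- counterparts, 4 were lower, and 12 were not called, with a median log2 difference of 0.92. These shares stand beside 53.1% higher and 13.2% lower among all 1998 probes of the study's list, which was selected on these samples, and 6.3% and 1.49% among all probes tested. With clone as a block 46 (75.4%) were higher and 8 (13.1%) lower, beside 56% and 17.2% of the study's list and 8.96% and 3.33% of all probes. Against V-S+, 37 of the 61 (60.7%) were higher and 7 (11.5%) lower, beside 48.1% and 11.6% of the study's list and 5.73% and 1.28% of all probes. Between V+S+ and V-S+ none was called without the block. With it 26 (42.6%) were higher and 6 (9.84%) lower, beside 25.5% and 8.76% of the study's list and 3.87% and 1.75% of all probes. In both of these comparisons the share called lower was near that of the study's list. Between V+S- and V+S+ none was called without the block. With it 9 (14.8%) were higher and 0 lower, beside 17% and 2.3% of the study's list and 1.75% and 0.353% of all probes. Dropping a V-S- sample of either clone or clone 16.1's V+S- sample took the 45 to 0, dropping clone 5.1's V+S- sample took them to 22 (5.52% of all probes called in either direction), and dropping a V-S+ sample of either clone took them to 28 (4.35%). The 37 went to 0 once the V-S+ sample of either clone or clone 16.1's V+S- sample was dropped, to 12 (4.05%) without clone 5.1's V+S- sample, and to 15 without the V-S- sample of clone 5.1 (3.25%) or clone 16.1 (3.26%).

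**Figure D4:**
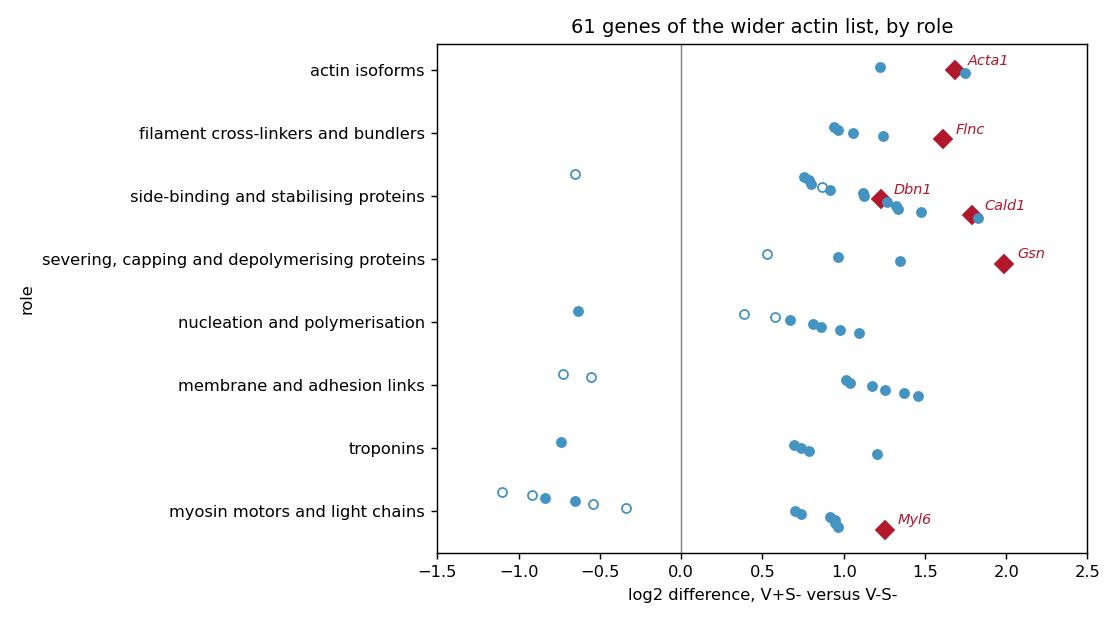
Difference in log2 Cy3/Cy5 ratio between V+S- and V-S- cells (horizontal axis) for the genes of the wider actin list in 8 roles (vertical axis). Diamonds are Gsn, Cald1, Flnc, Acta1, Myl6 and Dbn1, circles 55 other genes, and filled symbols passed the FDR of 0.05 and 1.5-fold. Most filled symbols lie to the right of 0, and the myosins are the role with points well spread on both sides.

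By role, and again for V+S- against V-S- cells, where 53.1% of the study's list were higher and 13.2% lower, all 3 actin isoforms were higher, with Acta2, the smooth muscle alpha-actin, at 1.75 and Acta1 at 1.69 on the log2 scale. All 5 cross-linkers and bundlers were higher, after Flnc the alpha-actinin Actn1 at 1.24. Among proteins that bind along the filament or stabilise it, 13 of 15 were higher, led by the calponin relative Tagln at 1.83 and Cald1. Of 4 severing, capping and depolymerising proteins 3 were higher, Gsn and the cyclase-associated protein Cap2 (1.35) in front. Nucleation and polymerisation gave 5 of 8 (62.5%) higher and 1 (12.5%) lower, near the shares of the study's list, and 3 of 8 (37.5%) were higher against V-S+, beside 48.1% of that list. Its leading members were the formin Fmnl2 at 1.10 and the coronin Coro2a at 0.98 against V-S-. In the group that links filaments to membranes and adhesions, 6 of 8 were higher, with Tes at 1.46 and the parvin Parva at 1.37, both found at focal adhesions.

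Of 13 myosin heavy and light chains 7 (53.8%) were higher and 2 (15.4%) lower, shares near the 53.1% and 13.2% of the study's list, and with the block 7 were higher and 4 (30.8%) lower, beside 17.2% lower in that list. The extremes were Myl6 at 1.25 and Mylpf, the fast skeletal regulatory light chain, at -1.10, which was not called (adjusted p = 0.0621) without the block and was with it. Of 5 troponins 4 were higher and 1 lower, with Tnnc1 at 1.20 and Tnnt2 at 0.79. The 4 genes of the list called lower without the block were Myh3 and Myh13, skeletal myosin heavy chains, the troponin Tnni3 and the actin-related protein Actr3b, between -0.84 (Myh13) and -0.63 (Actr3b). With the block Mylpf, Myo18b, Tln2 and Lima1 joined them. Apart from Mylpf, these genes are named after their values were seen.

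Markers of cell types were read beside the 6 genes. Only markers named by the study's list could be read, so that their counts stand beside its 53.1% higher and 13.2% lower between V+S- and V-S-, and the 6.3% and 1.49% of all probes. Of 9 primitive endoderm markers 8 were higher in the V+S- cells than in the V-S- cells, and the mean log2 ratio of the 9 was between -0.34 and -0.27 in the V+S- samples and between -1.14 and -0.74 in V+S+, against -1.49 to -1.43 (V-S-) and -1.48 to -1.30 (V-S+). Of 8 pluripotency markers 3 were lower (Dppa3, Nanog and Tdgf1), and 6 with the block (75%, beside 17.2% of the study's list). The mean of the 8 was 0.50 to 0.71 in V+S- against 1.36 to 1.43 in V-S-. The labels call these cells pre-primitive endoderm. Hex and Venus themselves were not analysed here.

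Markers of other cell types were read in the same way. All 4 smooth muscle markers named by the study's list (Acta2, Actg2, Cnn1 and Tagln, which are also in the actin list) were higher in the V+S- cells than in the V-S- cells, and their mean log2 ratio was 0.16 to 0.49 against -1.48 to -1.01. Against V-S+, where the mean was -1.09 to -0.50, 1 of these 4 was called higher (25%, beside 48.1% of the study's list), and all 4 were with the block. All 4 fibroblast markers (Col1a2, Postn, S100a4 and Twist2) were higher, with a mean of -3.62 to -3.02 against -5.03 to -4.87. Of 6 trophoblast markers 5 were higher, with a mean of 0.72 to 0.94 against -0.22 to -0.17. Skeletal and cardiac muscle markers went both ways, 5 of 10 higher and 4 lower, and their mean ran from -0.18 to -0.03 in V+S- samples and from -0.10 to -0.06 in V-S- samples. Of 3 mesoderm markers 2 were higher, and of 4 neuroectoderm markers 2 were higher and 1 lower. The shares of skeletal and cardiac muscle markers and of neuroectoderm markers called higher (50% each) were near that of the study's list, and lists of 3 to 10 genes give coarse shares. Between V+S+ and V-S+ no marker was called without the block. With it 2 of 4 smooth muscle, 2 of 6 trophoblast, 1 of 4 fibroblast, 1 of 3 mesoderm, 1 of 4 neuroectoderm, 1 of 10 skeletal and cardiac muscle and 1 of 9 primitive endoderm markers were higher, beside 25.5% of the study's list. Lower were 4 skeletal and cardiac muscle, 3 pluripotency and 1 trophoblast marker, beside 8.76%. In V+S+ samples the mean log2 ratio of smooth muscle markers was -0.48 to 0.34, against -1.09 to -0.50 in V-S+, that of trophoblast markers 0.38 to 0.43 against 0.05 to 0.14, and that of fibroblast markers -4.71 to -4.11 against -5.10 to -4.78. The part of other cell types in the values of the 6 genes was not tested, and in sorted bulk samples a change in the share of cells cannot be told apart from a change in RNA per cell.

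The 2 channels were also read apart. Over the 8 samples, the Cy3 signal over background of the 6 probes spanned between 3.11-fold (Myl6) and 5.67-fold (Flnc) from lowest to highest sample, and the Cy5 signal of the reference RNA between 1.23-fold (Myl6) and 1.43-fold (Flnc). With the Cy3 channel alone, without the reference, all 6 genes were called for V+S- against both Venus-negative fractions, as were 8.48% (V-S-) and 6.87% (V-S+) of all probes in either direction.

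The sequences before the starts of these genes are given as a description. The 6 were taken from a list selected for differences among fractions, and a common regulator was not tested. RefSeq lists 11 start sites for the 6 genes, on build GRCm38.p6, another build than that of the arrays, and the 250 bases before each were searched on both strands, overlapping matches counted once. The CArG box, the binding motif of serum response factor that is known from muscle actin genes, was found before 2 of the 11 starts, those of Acta1 and the second of Myl6, and before 1.47% of 32851 starts of all genes. Both sequences are printed on the strand of the gene, with the CArG box in capitals and, in Acta1, also the CATTCC and TATAAA motifs described after them.
Acta1, chr8:123894776-123895025, minus strand: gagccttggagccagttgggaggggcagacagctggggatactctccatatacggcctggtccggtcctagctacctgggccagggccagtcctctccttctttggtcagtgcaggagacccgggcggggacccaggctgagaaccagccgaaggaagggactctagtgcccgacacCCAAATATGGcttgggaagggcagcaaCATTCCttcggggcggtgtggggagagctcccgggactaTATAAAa
Myl6, chr10:128493010-128493259, minus strand: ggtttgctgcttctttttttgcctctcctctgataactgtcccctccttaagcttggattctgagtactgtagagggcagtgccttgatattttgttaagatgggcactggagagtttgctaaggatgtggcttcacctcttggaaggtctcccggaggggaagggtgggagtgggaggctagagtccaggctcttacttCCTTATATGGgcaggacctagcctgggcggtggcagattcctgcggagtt
The box lay 64 to 73 bases before the start of Acta1 and 41 to 50 before that of Myl6. CATTCC, the MCAT element bound by TEAD factors, stood before 3 of the 11 starts (1 each of Acta1, Cald1 and Flnc) and before 12.6% of all starts. TATAAA stood before 2 of the 11 starts (1 each of Acta1 and Cald1) and 12.4% of all, TGANTCA, the AP-1 site, before 1 of the 11 (Cald1) and 6.75% of all, and GGGCGG, the GC box, before 8 of the 11 starts and 32.7% of all. Those 8 starts belong to 5 of the 6 genes. The 2 windows of Flnc overlap, and the same GC boxes are counted in both. These matches describe the letters in the windows, and no binding was measured.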

How the data were processed

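RNA of 8 sorted samples was hybridised to two-colour 44K arrays against a reference RNA. The authors deposited the intensity of every spot as written by Agilent Feature Extraction 9.5.1.1, with outlier and background flags, in 16 files (2 scans per array). They also deposited log10 values of 25164 probes. How those were made beyond this is not given in the sources used here. The array design number in the file headers is not the one in the study's methods. Mean signals were background-corrected with normexp (offset 50), control spots were dropped, each scan was loess-normalized, and each sample's repeat scans were averaged (limma 3.58.1, R 4.3.3). A probe was kept if some fraction had it well above background in Cy3 in every file, which left 29495 of 42006, and 29484 remained after 11 with a missing value were set aside. One model with fraction as its term (lmFit, eBayes) took in all samples. Pairs of fractions had to pass both an FDR of 0.05 (Benjamini-Hochberg) and 1.5-fold, and the F-test and the interaction only the FDR. Same-numbered samples come from 1 clone, so that the clone pairs them: the clones' deviations correlated across probes (not independent) at r of 0.59 to 0.81 for the 6 pairs of fractions. The fit with clone as a block stands beside the other. Nothing says that the fractions of a clone came from separate cultures, so that p-values measure the spread between these samples. Precision is limited by having 2 arrays for each fraction.

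Probes were named through a supplementary list of the study, of which 1998 of 2169 rows were at hand. It was selected for differences among these fractions. The 6 genes, the list of actin genes and the marker lists were chosen with earlier results of these data known. One role of the actin list is counted in its totals and is not reported here on its own. The text names the 6 genes, at most 2 genes per role of the actin list, those with the largest absolute difference between V+S- and V-S-, the 3 probes most correlated with each gene and the 5 most correlated with their mean. Beyond this rule, the actin-list genes called lower, the other actin isoforms and single markers were named after their values were seen. The fits were tested on simulated data. Alternatives were other background corrections and normalizations, filters, single scans, the authors' log10 values, the block, no fold threshold and leaving out each sample. The fits that left out a sample had no clone term, so that they did not use the pairing by clone.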

Additional observations from a re-analysis of the deposited data

Results flagged for a closer look

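For Myl6 alone of the 6 genes the difference between V-S- and V-S+ cells pointed in opposite directions in the 2 clones, 0.057 in clone 5.1 and -0.159 in clone 16.1 on the log2 scale. This disagreement between the clones was not tested.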

How the results depend on the processing

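The calls of all 6 genes for V+S- against V-S- held under each alternative that kept all 8 samples, and for V+S- against V-S+ at least 5 of the 6 were called under each of them. With clone as the replicate block, 4 of the 6 were called for V+S+ against V-S+, 4 for V+S- against V+S+, 5 for V+S+ against V-S- and 3 for the interaction, where the fit without it called none. The F-test passed 1 gene with the scanner-processed signals (0.288% of all probes), 2 without a filter on dim probes (5.14%) and 2 with the authors' log10 values (2.73%), against 4 (7.38%). Leaving out 1 sample at a time, the number called ranged from 0 to 6 for V+S- against V-S- (0% to 9.64% of all probes), from 0 to 6 for V+S- against V-S+ (0% to 8.97%), from 0 to 3 for V+S+ against V-S- (0% to 4.74%) and from 0 to 6 for the F-test (0% to 15.3%). All 6 genes passed the F-test when clone 5.1 (15.3%) or clone 16.1 (9.1%) had its V+S+ sample dropped. These fits have 1 sample in a fraction, which is taken to vary like the others. In the same fits the difference between V-S- and V-S+ cells ranged from -0.237 to 0.136 for Myl6, turning positive once clone 5.1's V-S- sample (0.028) or clone 16.1's V-S+ sample (0.136) was dropped, and from -0.337 to 0.0074 for Dbn1, positive once clone 5.1's V-S- sample was dropped. No other difference of the 6 genes changed sign. The cause of these changes was not tested.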
